A study of Mus musculus with 5 samples.

Results

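The 10 genes described here form the kidney's machinery for phosphate, klotho and vitamin D, and they were taken by symbol from the 32285 genes of the count matrices: Kl, Fgfr1, Slc34a1, Slc34a3, Slc20a1, Slc20a2, Cyp24a1, Cyp27b1, Vdr and Pth1r. All 10 were detected. Their levels were followed over nephron segments in cell suspensions of digested kidney from wild-type male mice of the C57BL/6 strain, 8 to 10 weeks old, by droplet single-cell RNA sequencing of transcript 3′ ends. Aristolochic acid I (AAI), a plant nephrotoxin taken up by proximal tubule (PT) cells, was injected into the peritoneum (3 mg/kg, a dose each 3 days) until week 2, and kidneys taken then gave the acute kidney injury (AKI) libraries AKI 1 and AKI 2. Mice left without AAI for a further 2 weeks gave the chronic kidney disease (CKD) libraries CKD 1 and CKD 2 at week 4, and vehicle-injected mice gave the single control library. Since there was 1 control library, any feature of that library and the untreated state cannot be told apart, and the p-values measure only the spread between libraries.

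Phosphate leaves the filtrate across the brush border of PT cells through sodium-phosphate cotransporters. Their number is lowered by parathyroid hormone and by FGF23, a hormone from bone that needs the klotho protein as a coreceptor beside an FGF receptor. FGF23 also restrains the enzyme that makes active vitamin D and favours the enzyme that breaks it down, while active vitamin D works through its nuclear receptor, mainly on calcium handling in the distal nephron. Klotho is known for its high level in the distal convoluted tubule (DCT) and connecting tubule (CNT) and for its loss in kidney disease, and part of it is shed as a soluble hormone.

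The promoters of the 2 brush border cotransporter genes and of Kl are shown because the PT-restricted and the distal genes of the set behaved differently. Sequences are from RefSeq, build GRCm38.p6, from 250 bases before to 50 after the start site, printed on the gene's strand. Capitals mark GTTAAT, a half-site of the HNF1 factors of PT cells, and AGGTCA, a half-site of nuclear receptors, in either orientation. The 2 motifs do not overlap each other in these windows. The regions are chr13:55399398-55399697 (plus strand) for Slc34a1, chr2:25234185-25234484 (minus strand) for Slc34a3 and chr5:150952357-150952656 (plus strand) for Kl.
Slc34a1: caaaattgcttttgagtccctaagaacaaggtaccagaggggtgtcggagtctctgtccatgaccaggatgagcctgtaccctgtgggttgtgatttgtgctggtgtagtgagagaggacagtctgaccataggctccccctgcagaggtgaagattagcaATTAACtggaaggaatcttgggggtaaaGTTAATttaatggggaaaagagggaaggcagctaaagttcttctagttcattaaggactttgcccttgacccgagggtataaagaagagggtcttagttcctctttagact
Slc34a3: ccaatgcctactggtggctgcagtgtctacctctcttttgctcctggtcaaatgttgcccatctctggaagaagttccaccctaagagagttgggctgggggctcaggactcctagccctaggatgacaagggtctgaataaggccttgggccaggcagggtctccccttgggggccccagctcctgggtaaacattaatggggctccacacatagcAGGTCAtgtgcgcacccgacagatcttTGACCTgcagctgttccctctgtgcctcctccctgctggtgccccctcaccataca
Kl: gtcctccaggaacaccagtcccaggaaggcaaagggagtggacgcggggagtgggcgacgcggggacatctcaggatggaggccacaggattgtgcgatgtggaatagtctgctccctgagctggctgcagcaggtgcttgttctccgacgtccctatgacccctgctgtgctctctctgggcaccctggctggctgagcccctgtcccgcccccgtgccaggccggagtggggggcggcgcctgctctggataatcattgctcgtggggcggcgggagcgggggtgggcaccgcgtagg
The Slc34a1 window held GTTAAT at -61 on the gene's strand and at -89 on the opposite strand. The Slc34a3 window held AGGTCA at -33 and, on the opposite strand, at -6. Neither run of letters was in the Kl window. For comparison, 7.10% of 32851 promoter windows of the same length held GTTAAT and 16.3% held AGGTCA on either strand, so these matches are descriptions of the letters only.

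After filtering, 53718 cells remained, between 8496 and 16330 a library, with a median of 2889 to 5538 unique molecular identifiers (UMIs, 1 per captured transcript) a cell. The control library differed in quality, with 38.7% of its barcodes over the limit of 30% mitochondrial UMIs against 11.1% to 12.7% in the others. Between 109 and 200 kept barcodes a library also occurred in another library, and 116 of them were shared by the control and CKD 2. Cells were clustered without the 10 genes and named from marker lists as PT-like, thick ascending limb (TAL)-like, DCT-like, CNT-like and so on. PT-like cells numbered 1066, 516, 501, 977 and 319 in control, AKI 1, AKI 2, CKD 1 and CKD 2, the order used for all values below, and DCT-like cells 601, 172, 117, 149 and 48. Levels are UMIs of a gene per 10000 UMIs of all genes, summed over the cells of a class in a library. In PT-like cells 6 markers of the early proximal tubule (S1-S2) summed to 36.6, 24.0, 22.8, 27.7 and 25.1 and 6 markers of the late part (S3) to 3.70, 3.8, 4.18, 2.70 and 3.28, with the S3 marker Slc7a13 at most 0.022. T lymphocyte-like cells (1237 in the control and 5555 to 5875 in each other library), which should lack Kl and Slc34a1, served to measure free RNA: they held Kl at 0.799, 0.109, 0.075, 0.159 and 0.023 UMIs per 10000 and Slc34a1 at 1.27, 0.609, 0.637, 1.38 and 0.202.

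The 10 genes fell into 3 patterns over the nephron. Slc34a1, Slc34a3, Cyp24a1 and Cyp27b1 were PT genes, with PT-like cells holding 72.4% to 88.1%, 72.2% to 87.9%, 73.3% to 88.1% and 65.6% to 86.0% of their UMIs in the named classes of a library. Clusters that got no name were left out of these shares. By the mean of the groups, Kl and Vdr peaked in the distal nephron, in the order CNT-like then DCT-like. Pth1r was highest in TAL-like cells. Slc20a1, Slc20a2 and Fgfr1 were spread more widely. CNT-like cells held more Kl and more Vdr than DCT-like cells in 4 of 4 libraries with at least 20 cells of both, though the ranges over libraries overlapped. DCT-like cells held more Kl than collecting duct principal cell (CD PC)-like cells in only 3 of 5 libraries, and these ranges overlapped too. Mean Kl in AKI was 1.39 in DCT-like, 2.25 in CD PC-like and 1.51 in PT-like cells. The Kl levels of CD PC-like, PT-like and TAL-like cells overlapped in range. For Pth1r, TAL-like cells stood above PT-like cells in 5 of 5 libraries without overlap, while PT-like and DCT-like cells overlapped. For Slc34a1 the PT-like range lay above that of every other class.

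**Figure D1:**
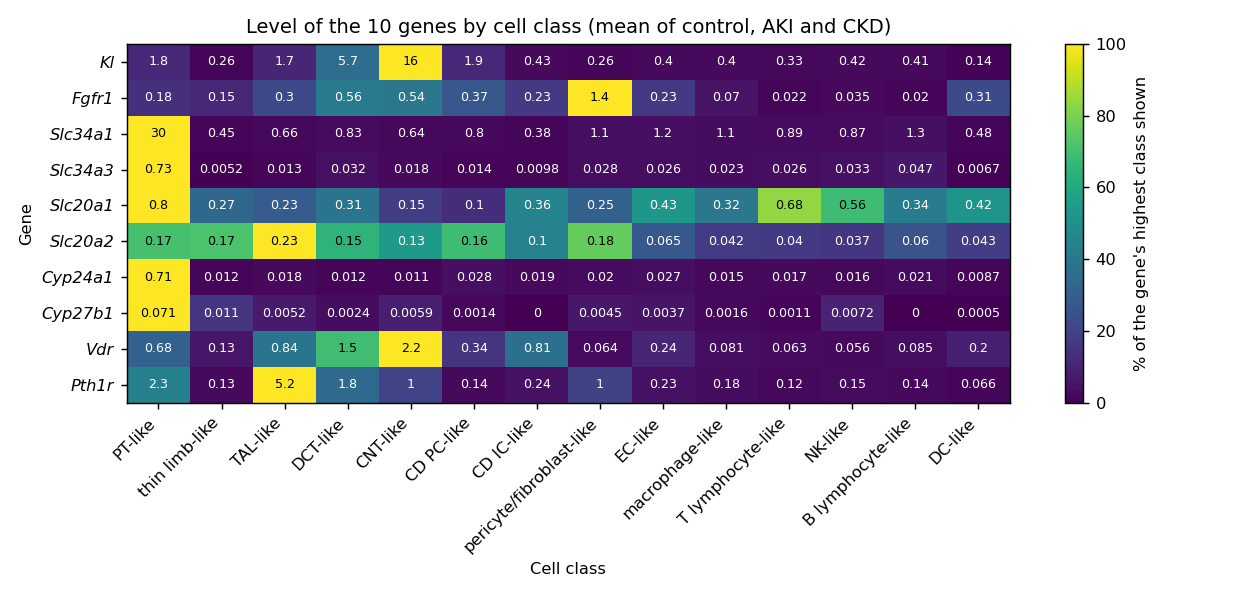
Level of each of the 10 genes (rows) by cell class (columns), printed in UMIs per 10000 as the mean of the control, AKI and CKD group means and coloured as percent of the gene's highest class shown. Slc34a1, Slc34a3, Cyp24a1 and Cyp27b1 peak in PT-like cells, Kl and Vdr in CNT-like cells, Pth1r in TAL-like cells and Fgfr1 in pericyte/fibroblast-like cells.

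Which of the genes changed in injury was asked class by class, with edgeR's quasi-likelihood test on summed counts and Benjamini-Hochberg adjustment over all genes of the class. In 6 nephron classes with enough cells, 11 of 47 tests of a gene in a class passed adjusted p under 0.05 in AKI against control, 2 higher and 9 lower, where 9.13% of all tests over all genes passed. In CKD against control 6 of 47 passed, 3 in each direction, against 4.46% of all. Over all 13 classes the numbers were 15 of 94 in AKI (background 5.79%) and 10 of 94 in CKD (background 7.42%). CKD against AKI gave 0 of 95 by edgeR's quasi-likelihood test, 13 at unadjusted p under 0.05 and 1 with DESeq2, where 3.46% of all tests passed (0.963% in the nephron classes). The median log2 change over the 47 nephron tests was -0.18 in AKI and 0.00 in CKD. By class the called genes were 4 of 10 in PT-like, 3 of 7 in DCT-like and 3 of 7 in TAL-like cells in AKI, beside 21.3%, 14.7% and 6.31% of all genes. In CKD they were 2 of 10, 1 of 7 and 2 of 7, beside 10.6%, 3.98% and 5.38%.

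**Figure D2:**
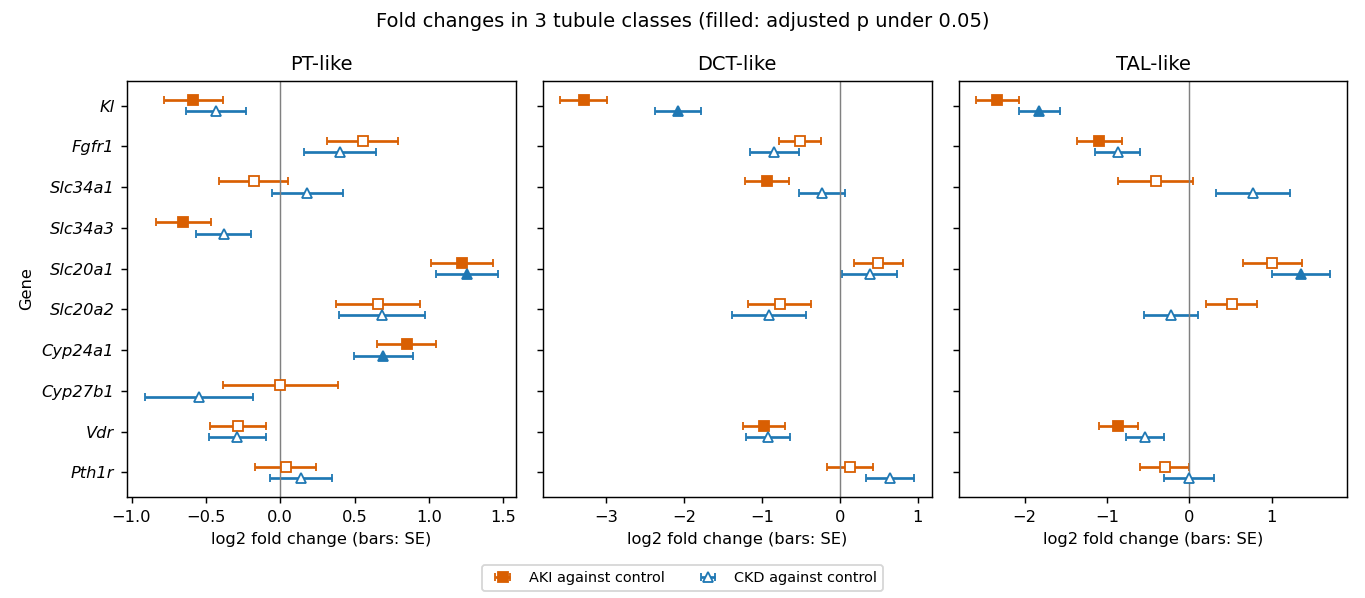
Log2 fold change against control (x axis) for each gene (y axis) in PT-like, DCT-like and TAL-like cells, squares for AKI and triangles for CKD, bars showing the standard error and filled symbols an adjusted p under 0.05. Kl lies furthest to the left in DCT-like and TAL-like cells, at -3.29 and -2.33 in AKI, and Slc20a1 and Cyp24a1 lie to the right in PT-like cells; genes without a symbol were not tested in that class.

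Kl (ENSMUSG00000058488), the gene of the klotho coreceptor, fell in the DCT-like and TAL-like cells at both stages. In DCT-like cells it measured 12.8, 1.73, 1.04, 3.19 and 2.90 UMIs per 10000, from 3525, 233, 76, 272 and 81 UMIs. The control stood above all 4 other libraries, and both CKD libraries stood above both AKI libraries. The log2 change was -3.29 (SE 0.30, adjusted p = 2.41e-06, edgeR) in AKI and -2.08 (SE 0.30, adjusted p = 0.000376) in CKD, so that AKI held 0.102 times and CKD 0.237 times the control level. CKD against AKI was 1.21 (SE 0.27, adjusted p = 0.073) and did not pass, where 0.298% of genes did. That comparison passed without CKD 2 (1.28, adjusted p = 0.000406) and in 5 other of the 15 alternatives. In TAL-like cells, the segment that reabsorbs salt ahead of the DCT, Kl measured 3.49, 0.663, 0.729, 1.06 and 0.802. Again the control lay above the other 4, with log2 changes of -2.33 (SE 0.26, adjusted p = 2.15e-05) in AKI and -1.82 (SE 0.25, adjusted p = 0.000218) in CKD. These 4 calls held in every alternative run.

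In PT-like cells the libraries lay closer together. Kl measured 2.15, 1.496, 1.53, 1.75 and 1.5 there, with a log2 change of -0.58 (SE 0.20, adjusted p = 0.0479) in AKI and -0.43 (SE 0.20, adjusted p = 0.203) in CKD. The AKI call was lost in 10 of 15 alternatives, among them without AKI 1 (-0.51, adjusted p = 0.215) and without AKI 2 (-0.59, adjusted p = 0.192). Once the level of the same library's T lymphocyte-like cells was subtracted, PT-like Kl was 1.35, 1.39, 1.45, 1.59 and 1.48. After this step the 4 injured libraries were no longer below the control. The subtraction assumes that free RNA takes the same share of UMIs in both classes. In the control it gave negative values for thin limb-like (-0.268), collecting duct intercalated cell-like (-0.224) and dendritic cell-like cells (-0.473). It may thus remove too much, and the part of free RNA in the PT-like fall was not tested. With the same subtraction DCT-like cells stayed at 11.96, 1.62, 0.969, 3.03 and 2.87 and TAL-like cells at 2.69, 0.554, 0.654, 0.903 and 0.779, the control highest in both. A test of the difference between classes, chosen after the data were seen, put the AKI change of DCT-like cells 2.78 log2 units below that of PT-like cells (SE 0.31, adjusted p = 1.56e-15; 6.35% of all genes passed) and the CKD change 1.75 units below it (SE 0.31, adjusted p = 5.7e-06; 2.37% passed). For TAL-like against PT-like cells the difference was -1.72 (SE 0.28, adjusted p = 4.2e-06; 5.02% passed). The DCT-like and TAL-like changes did not differ by this test (-0.95, SE 0.31, adjusted p = 0.126; 2.19% passed).

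In CNT-like cells, the class with most Kl, the levels were 24.1, 9.76, 11.3, 13.6 and 20.1, with CKD 2 resting on 16 cells. The 2 AKI libraries were lowest and CKD 2 was closest to the control. The 6 CNT markers summed to 771, 344, 430, 458 and 398 in CNT-like cells (5 of 6 lower than the control in both AKI libraries, 3 of 6 in both CKD libraries). Unlike Kl, this sum was lower in CKD 2 than in AKI 2 and CKD 1. Of the 6, Trpv5 was lowest in the control, at 1.58, 2.33, 2.73, 1.94 and 2.11. The 8 injured tubule markers summed to 4.54, 29.3, 25.7, 10.4 and 13.2. The part of both lists in the Kl level was not tested. With classes of at least 10 cells admitted, a limit chosen after the data were seen, the log2 change was -1.34 (SE 0.24, adjusted p = 0.000974, edgeR; 3.87% of genes passed) in AKI and -0.60 (SE 0.25, adjusted p = 0.378; 1.91% passed) in CKD. The AKI change of CNT-like cells lay 1.99 log2 units above that of DCT-like cells (SE 0.42, adjusted p = 0.0411), in a comparison where 0.269% of genes passed. For CKD the same difference was 1.42 (SE 0.42, adjusted p = 0.369; 0.0622% passed). CD PC-like cells, next along the tubule, held 1.35, 1.75, 2.74, 2.32 and 1.62, the control lowest, and no change was called there (0.79, SE 0.33, adjusted p = 0.377 in AKI).

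**Figure D3:**
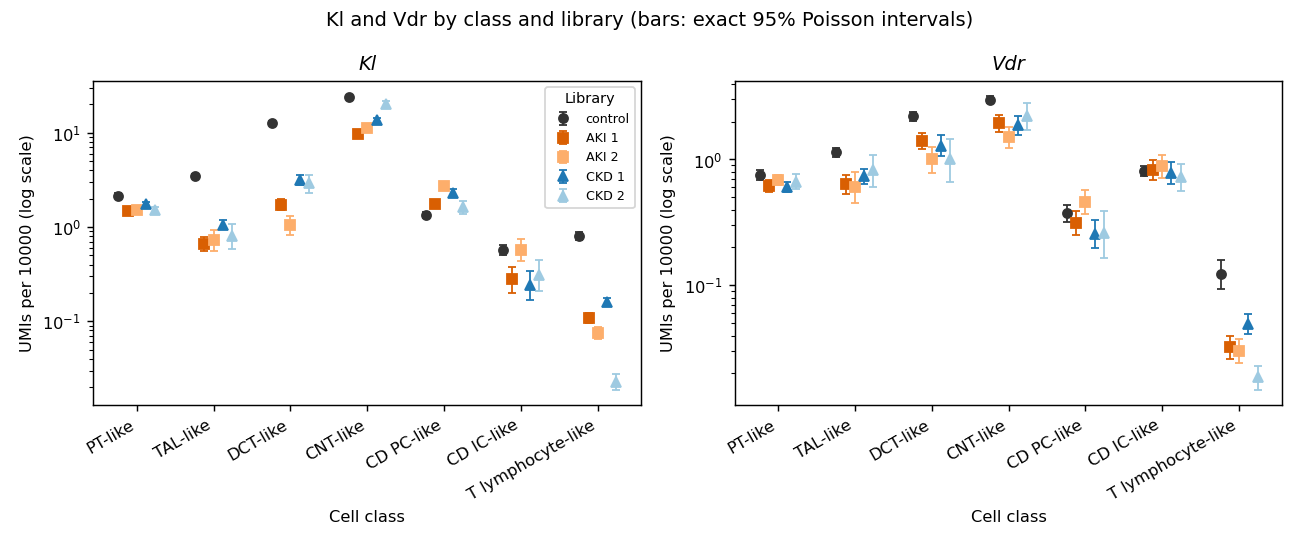
Kl (left) and Vdr (right) in UMIs per 10000 on a log axis, by cell class and library, with exact 95% Poisson intervals for counting error only; T lymphocyte-like cells show the free RNA level. In DCT-like and TAL-like cells the control circle stands above all 4 other libraries for both genes, by more for Kl than for Vdr.

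Other features of these cells moved together with Kl. All 6 DCT markers were lower in both AKI and both CKD libraries than in the control, and their summed level in DCT-like cells was 121, 51.7, 49.5, 63.0 and 53.6 UMIs per 10000. Slc12a3, the thiazide-sensitive salt transporter that defines the DCT, measured 85.7, 36.1, 36.1, 44.0 and 39.1. Pvalb, a calcium buffer of the early DCT, measured 8.04 in the control and 0.055 to 3.00 in the others. Calb1, the calcium buffer that DCT and CNT share, measured 18.0, 5.28, 3.19, 7.64 and 9.37. TAL markers were also present in DCT-like cells and did not follow Kl. Their sum there was 75.1 in the control, 55.4 in AKI 1, 33.4 in AKI 2 and 96.9 in CKD 1. Both CKD libraries stood above the control for this sum. It was larger than the DCT marker sum in AKI 1, CKD 1 and CKD 2, so the class also held TAL transcripts. In TAL-like cells the summed TAL markers were 258, 241, 177, 181 and 143, a smaller spread than that of Kl. Markers of injured tubule moved the other way, with sums of 2.51, 38.6, 45.2, 14.3 and 74.3 in DCT-like cells and 1.85, 33.5, 29.9, 20.5 and 19.7 in TAL-like cells. In DCT-like cells 9 dissociation stress genes summed to 47.5, 156, 166, 104 and 136. The median over cells of the mitochondrial share was 18.4%, 6.53%, 6.31%, 14.7% and 4.71% in DCT-like cells and 21.8%, 11.1%, 11.4%, 16.1% and 7.13% in TAL-like cells. The part of these in the Kl result was not tested. Within the larger of the 2 DCT-like clusters by UMIs (cluster 16), Kl was 14.3, 1.66, 0.742 and 3.51 in the 4 libraries with at least 20 cells, and within the other (cluster 2) it was 7.03, 2.12, 1.99, 1.92 and 3.94. The control was highest in both. In cluster 16 the TAL marker Umod stood above Slc12a3 in AKI 1 and CKD 1 (103 against 47.9 in CKD 1), but not in the control or AKI 2. In cluster 2 Slc12a3 stood above Umod in every library. Of the 4 TAL-like clusters, 2 had at least 20 cells in all 5 libraries: Kl was 3.71, 0.647, 0.360, 1.14 and 1.27 in cluster 4 and 3.29, 0.606, 0.950, 1.19 and 0.350 in cluster 7, again with the control highest. Calb1 and Slc12a3 were also present there, each highest in the control. Calb1 was 0.735, 0.052, 0.063, 0.428 and 0 in cluster 4 and 4.83, 0.505, 0.292, 0.429 and 0.175 in cluster 7. In cluster 7 Slc12a3 was 4.16, 0.353, 0.073, 0.245 and 0.175. Over all TAL-like cells the 6 CNT markers summed to 51.7, 29.2, 39.6, 73.9 and 54.6, the control not highest. The part of these transcripts in the Kl level was not tested.

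The remaining calls for Kl, and 1 for Slc34a1, concerned classes near the free RNA level and are given only as such. Kl was called lower in AKI in thin limb-like, B lymphocyte-like, NK-like and DC-like cells, and in CKD in the last 3. The shares of all genes called were 5.69%, 1.87%, 1.91% and 9.29% in AKI, and 1.64%, 1.91% and 12.2% in CKD. In these classes Kl minus the T lymphocyte-like level of the same library ran from -0.473 to 0.304 UMIs per 10000. Kl was also called lower in CKD in collecting duct intercalated cell (CD IC)-like cells (-1.07, SE 0.29, adjusted p = 0.0317; 4.32% of genes passed), where it measured 0.576, 0.281, 0.577, 0.245 and 0.311. There the control lay below its T lymphocyte-like level and the 4 injured libraries lay above theirs, by 0.086 to 0.502. Slc34a1 was called lower in DCT-like cells in AKI (-0.94, SE 0.29, adjusted p = 0.0351), at 1.06, 0.579, 0.618, 1.11 and 0.572 against 1.27, 0.609, 0.637, 1.38 and 0.202 in T lymphocyte-like cells.

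Fgfr1 (ENSMUSG00000031565), the FGF receptor that pairs with klotho, was highest in pericyte/fibroblast-like cells, at 1.41, 1.32, 1.32, 1.49 and 1.24, above DCT-like cells in 5 of 5 libraries. DCT-like cells held 0.698, 0.512, 0.549, 0.316 and 0.572 and CNT-like cells 0.595, 0.411, 0.555, 0.542 and 0.562, with no call in the DCT-like class (-0.51, SE 0.27, adjusted p = 0.252 in AKI and -0.84, SE 0.32, adjusted p = 0.167 in CKD). In TAL-like cells it fell in AKI, from 0.449 to 0.213 and 0.205 (-1.09, SE 0.27, adjusted p = 0.0211), with CKD at 0.225 and 0.273 (-0.87, SE 0.27, adjusted p = 0.0778). The control stood above the other 4 libraries, each of which had only 16 to 69 UMIs of the gene. The AKI call was lost without AKI 1 (adjusted p = 0.164), without AKI 2 (0.0768) and with DESeq2 (0.713). In PT-like cells Fgfr1 was 0.140, 0.199, 0.235, 0.190 and 0.190, the control lowest, and was not called (0.55, SE 0.24, adjusted p = 0.111 in AKI). The TAL-like change lay 1.58 log2 units below the PT-like change in AKI (SE 0.37, adjusted p = 0.00304) and 1.26 below it in CKD (SE 0.37, adjusted p = 0.0356; 3.64% of genes passed).

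Slc34a1 (ENSMUSG00000021490) encodes the main sodium-phosphate cotransporter of the brush border, and no difference in its level in PT-like cells passed the test. It measured 29.5, 28.03, 27.1, 34.5 and 34.3 UMIs per 10000. Both AKI libraries lay below the control and both CKD libraries above it, by small margins. The log2 change was -0.18 (SE 0.23, adjusted p = 0.641) in AKI, 0.18 (SE 0.24, adjusted p = 0.702) in CKD and 0.36 (SE 0.19, adjusted p = 0.363, interval -0.02 to 0.74) in CKD against AKI. The clusters that made up the class differed between groups: cluster 5 held 61.4% and 69.1% of PT-like UMIs in AKI and 42.0% and 40.1% in CKD but 16.9% in the control, where clusters 10 and 21 held 30.9% and 30.3%. Within cluster 1, present in all 5 libraries, Slc34a1 was 49.7, 34.1, 33.4, 42.8 and 42.6, the control highest and the AKI libraries lowest. Within cluster 5 it was 35.0, 27.6, 23.9, 34.3 and 35.7, with AKI again lowest. In cluster 10, led by Miox and Car3, it was 6.55, 7.57, 23.2, 9.32 and 7.89, below cluster 5 in each library but close to it in AKI 2.

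Slc34a3 (ENSMUSG00000006469), the second brush border cotransporter, measured 0.890, 0.590, 0.605, 0.732 and 0.665 in PT-like cells. The control was highest and the AKI libraries lowest. It fell in AKI (-0.65, SE 0.18, adjusted p = 0.0186), and its CKD change was -0.38 (SE 0.19, adjusted p = 0.228). The AKI call was lost in 7 of 15 alternatives, among them without AKI 1 (-0.58, adjusted p = 0.102), without AKI 2 (-0.66, adjusted p = 0.0881) and with the mitochondrial limit at 15%, where the change was -0.14 (adjusted p = 0.77). Within cluster 1 Slc34a3 was 1.33, 0.462, 0.596, 0.282 and 0.313, the control highest, whereas within cluster 5 it was 0.726, 0.701, 0.590, 1.096 and 0.892, with both CKD libraries above the control. In cluster 21 it was 1.58 in the control, on 265 UMIs, and 0.876 and 0.959 in CKD 1 and CKD 2. That cluster held 30.3% of PT-like UMIs in the control but 4.84% and 2.59% in AKI, on 19 and 10 cells. In clusters 9 and 10 the control lay within the range of the other libraries, and in cluster 23 it was lowest, on 7 UMIs. The 10 PT markers in PT-like cells summed to 120, 67.1, 65.0, 72.3 and 75.4 (7 of 10 lower than the control in both AKI and in both CKD libraries), and 8 injured tubule markers to 1.51, 7.45, 7.19, 2.69 and 2.25. The part of the cluster makeup and of these lists in the Slc34a3 change was not tested.

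**Figure D4:**
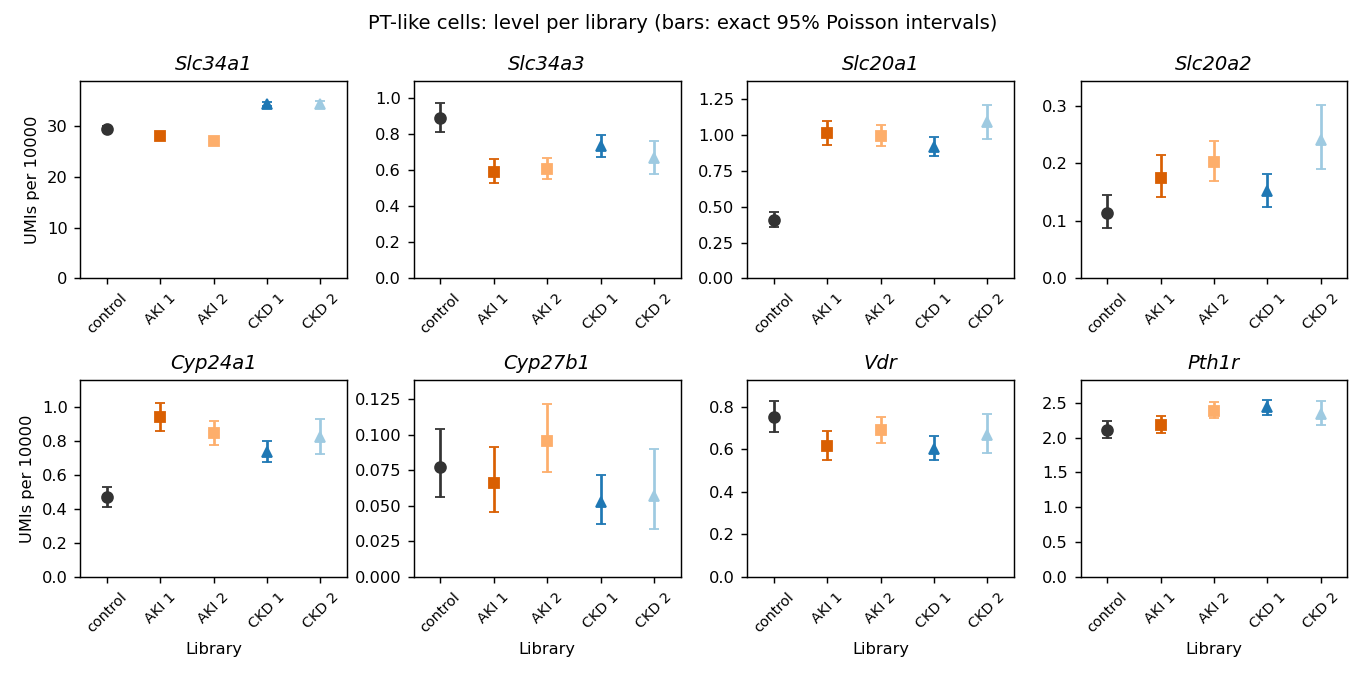
Level of 8 of the genes in PT-like cells, in UMIs per 10000 from 0, for each of the 5 libraries, with exact 95% Poisson intervals that cover counting error only. Slc20a1 and Cyp24a1 are lowest in the control, Slc34a3 is highest there, and Slc34a1 lies between 27.1 and 34.5 throughout.

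Of the 2 ubiquitous phosphate importers of the SLC20 family, 1 rose in PT-like cells. Slc20a1 (ENSMUSG00000027397), the gene of PiT-1, measured 0.407, 1.01, 0.995, 0.919 and 1.09 in PT-like cells, and the 4 injured libraries all stood above the control. It rose 2.33-fold in AKI (log2 1.22, SE 0.21, adjusted p = 0.000528) and 2.39-fold in CKD (log2 1.26, SE 0.21, adjusted p = 0.000803), and both calls held in 15 of 15 alternatives. Within clusters the control was lowest in cluster 1 (0.961, against 2.39 to 3.30), in cluster 5 (0.427, against 0.702 to 0.913), in cluster 21, which had 3 libraries with at least 20 cells (0.595, against 0.876 and 0.959), and in cluster 23 on 1 UMI (0.069, against 0.125 to 0.488). It was not lowest in clusters 9 and 10, where each library had 0 to 4 UMIs and AKI 1 and CKD 2 had 0. Cluster 10, with Slc20a1 at 0.017 in the control, held 30.9% of PT-like UMIs there and 2.63% to 4.30% in the other libraries. The part of this makeup in the size of the 2 fold changes was not tested. Slc20a1 was also expressed by T lymphocyte-like cells, at 0.767, 0.680, 0.631, 0.578 and 0.627, where the control was highest. T lymphocyte transcripts in PT-like cells (6 genes, 6 of them called higher at each stage) summed to 0.135, 0.678, 0.538, 0.776 and 1.68, against 39.3 to 48.1 in T lymphocyte-like cells. Dissociation stress genes in PT-like cells (8 of 9 called higher at each stage) summed to 19.7, 68.3, 52.1, 42.6 and 38.9, and their part in the result was not tested.

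In TAL-like cells Slc20a1 measured 0.131, 0.227, 0.319, 0.371 and 0.222, below the T lymphocyte-like level in 5 of 5 libraries. It was called higher in CKD (1.36, SE 0.35, adjusted p = 0.0274) but not without CKD 1 (0.71, adjusted p = 0.53), and the AKI change was 1.00 (SE 0.36, adjusted p = 0.128). Slc20a2 (ENSMUSG00000037656), the gene of PiT-2, was low throughout, at 0.113, 0.175, 0.202, 0.151 and 0.241 in PT-like cells and 0.208, 0.305, 0.285, 0.143 and 0.256 in TAL-like cells. The control was lowest in PT-like cells, but neither change passed (0.66, SE 0.29, adjusted p = 0.115 in AKI and 0.68, SE 0.29, adjusted p = 0.156 in CKD). In DCT-like cells it measured 0.214, 0.141, 0.124, 0.117 and 0.107, the control highest, also without a call (-0.78, SE 0.40, adjusted p = 0.234 in AKI). The difference between the DCT-like and PT-like changes in AKI did pass, at -1.45 (SE 0.48, adjusted p = 0.0403).

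**Figure D5:**
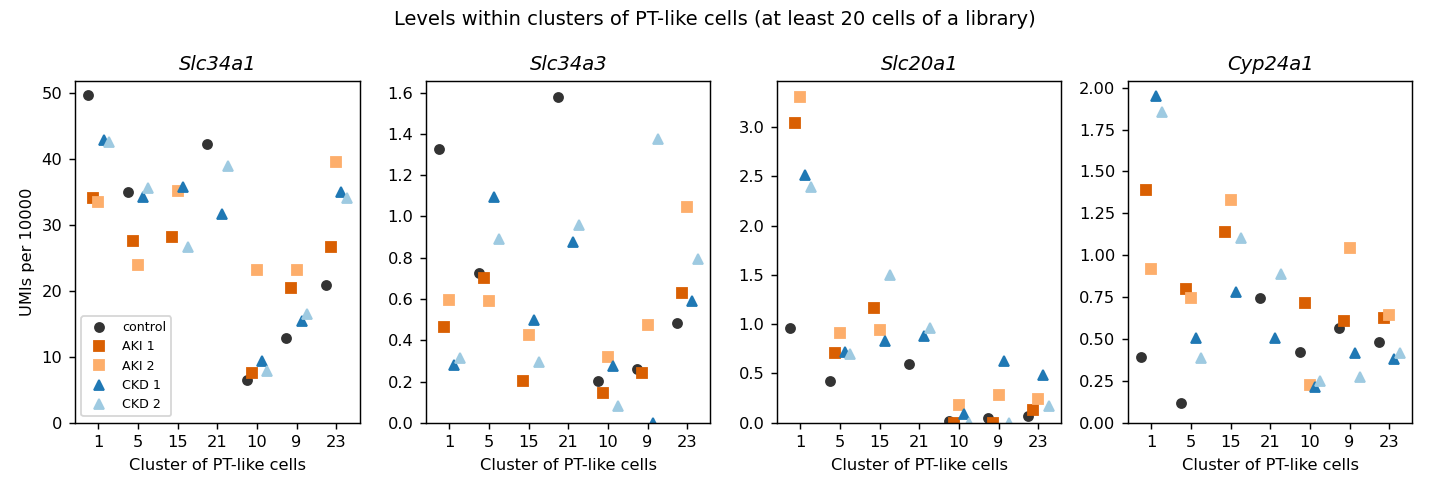
Levels of Slc34a1, Slc34a3, Slc20a1 and Cyp24a1 in UMIs per 10000 (y axis) within each cluster of PT-like cells (x axis), 1 point per library with at least 20 cells in the cluster. In clusters 1 and 5 the control circle is lowest for Slc20a1 and Cyp24a1, and in cluster 1 it is highest for Slc34a1 and Slc34a3.

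Of the enzymes that set the level of active vitamin D, the one that breaks it down rose. Cyp24a1 (ENSMUSG00000038567) measured 0.468, 0.940, 0.845, 0.738 and 0.823 in PT-like cells, from 260 to 583 UMIs a library. The control was below the other 4. The change was 1.80-fold in AKI (log2 0.85, SE 0.20, adjusted p = 0.00564) and 1.62-fold in CKD (log2 0.69, SE 0.20, adjusted p = 0.0338). The AKI call held in 15 of 15 alternatives and the CKD call in 14, the exception being DESeq2 (adjusted p = 0.0853). Within cluster 1 Cyp24a1 was 0.391, 1.39, 0.918, 1.95 and 1.86 and within cluster 5 it was 0.118, 0.796, 0.745, 0.504 and 0.387, the control lowest in both. In clusters 9, 10 and 23 the control lay within the range of the other libraries. In cluster 21 Cyp24a1 was 0.744 in the control, between CKD 1 (0.505) and CKD 2 (0.885). Clusters 10 and 21 held 30.9% and 30.3% of PT-like UMIs in the control, and clusters 1 and 5 held 15.2% and 16.9%. In the other named classes with at least 20 cells in a library it was at most 0.167.

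Cyp27b1 (ENSMUSG00000006724), whose enzyme makes active vitamin D, was close to the limit of detection. PT-like cells held 43, 35, 66, 40 and 18 UMIs of it, or 0.077, 0.066, 0.096, 0.053 and 0.057 per 10000. Both CKD libraries were lowest, and neither change passed (0.00, SE 0.39, adjusted p = 1.00 in AKI and -0.55, SE 0.36, adjusted p = 0.396 in CKD). At this depth the AKI interval ran from -0.76 to 0.76 on the log2 scale, so a change of that size was not detectable.

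Vdr (ENSMUSG00000022479), the vitamin D receptor gene, fell in AKI in DCT-like cells, where it measured 2.21, 1.39, 1.00, 1.29 and 1.00. The control was highest. The log2 change was -0.97 (SE 0.27, adjusted p = 0.0193) in AKI and -0.93 (SE 0.28, adjusted p = 0.0784) in CKD. The AKI call was lost without AKI 1 (-1.25, adjusted p = 0.0597), without AKI 2 (-0.79, adjusted p = 0.373), with DESeq2 and with doublets kept, and the CKD change passed without CKD 1 (-1.17, adjusted p = 0.0381). TAL-like cells held 1.14, 0.639, 0.604, 0.733 and 0.819, again with the control highest, and the AKI change was called (-0.86, SE 0.23, adjusted p = 0.035) but was lost without AKI 1 (adjusted p = 0.221) and without AKI 2 (0.218). The makeup of the TAL-like class differed between groups: cluster 37, with Vdr at 1.73 in the control, held 21.8% of TAL-like UMIs in the control and 2.96%, 2.08%, 3.52% and 14.1% in the others, and cluster 19 held 30.3% in CKD 1 and 0.136% in the control. Within cluster 4 Vdr was 1.00, 0.653, 0.611, 0.733 and 1.04, with CKD 2 above the control, and within cluster 7 it was 0.671, 0.252, 0.439, 0.337 and 0.262, with the control highest. CNT-like cells held 2.99, 1.95, 1.495, 1.87 and 2.21. With at least 10 cells a library, the CNT-like change was -0.93 (SE 0.25, adjusted p = 0.0308) in AKI and -0.64 (SE 0.26, adjusted p = 0.358) in CKD. PT-like cells (0.753, 0.615, 0.689, 0.603 and 0.668) and CD IC-like cells (0.810, 0.822, 0.890, 0.787 and 0.719) showed no call. The DCT-like change was not shown to differ from the PT-like change (-0.74, SE 0.30, adjusted p = 0.143 in AKI).

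Outside the nephron Vdr rose in dendritic cell (DC)-like cells. It measured 0.053, 0.259, 0.231, 0.266 and 0.319 there, from 7, 54, 68, 89 and 145 UMIs, with the control below the other 4. The log2 change was 2.36 (SE 0.40, adjusted p = 0.00863; 9.29% of genes passed in this class) in AKI and 2.57 (SE 0.39, adjusted p = 0.00368; 12.2% passed) in CKD, and both calls held in 15 of 15 alternatives. The makeup of the class moved as well: cells with a UMI of Ccr7, a receptor of migrating DCs, were 11.02% of DC-like cells in the control and 46.0% to 50.3% elsewhere, and Xcr1, a marker of cross-presenting DCs, measured 2.52 in the control and 0.220 to 0.510 elsewhere. Among cells without a Ccr7 UMI, Vdr was 0.051, 0.131, 0.211, 0.190 and 0.242, and among cells with one it was 0.077, 0.374, 0.254, 0.323 and 0.381. The control was lowest in both, with 6 and 1 UMIs. By cluster, Vdr was 0.025, 0.278, 0.236, 0.269 and 0.333 in cluster 17, the control again lowest. In cluster 48, led by Siglech, it was highest in the control (0.321, on 4 UMIs), with 0.189 in CKD 1 and 0 in the others. A cluster of 184 cells with Ccr7 among its leading genes stayed unnamed and was not part of the class.

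Pth1r (ENSMUSG00000032492), the receptor through which parathyroid hormone lowers phosphate uptake in PT cells and acts on calcium in TAL and DCT, was not called in any class. TAL-like cells held 5.59, 5.04, 3.98, 6.20 and 4.66, with the control inside the range of the others (-0.30, SE 0.30, adjusted p = 0.685 in AKI; 0.00, SE 0.30, adjusted p = 0.999 in CKD). PT-like cells held 2.11, 2.19, 2.39, 2.43 and 2.34, the control lowest by a small margin (0.04, SE 0.21, adjusted p = 0.93 in AKI; 0.14, SE 0.21, adjusted p = 0.745 in CKD). The 95% interval of the PT-like AKI change ran from -0.37 to 0.44. In DCT-like cells the levels were 1.40, 1.85, 1.43, 1.77 and 2.79, the highest in CKD 2 on 78 UMIs, without a call (0.64, SE 0.31, adjusted p = 0.321 in CKD).

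The partners of the 10 genes were counted from 5 pathway lists. Over the 6 nephron classes, 26 of 229 tests of a listed gene passed in AKI against control, 13 in each direction, 6 in CKD against control (5 higher) and 5 in CKD against AKI (3 higher). Of all genes 9.13%, 4.46% and 0.963% passed in these classes, so the listed genes stood near that background in AKI, below it in CKD against control and, on 5 calls, above it in CKD against AKI. In PT-like cells 12 of 43 passed in AKI, 6 higher and 6 lower, where 12.1% of all genes were called higher and 9.16% lower. Of 9 tested FGF receptors and FGF signal readouts, Egr1, an immediate early transcription factor that also responds to dissociation, rose from 1.23 to 7.38 and 5.53 in AKI (2.31, SE 0.27, adjusted p = 1.64e-05) and to 4.31 and 3.43 in CKD. Etv5, an ETS factor used as a readout of FGF signalling, fell in AKI (-1.28, SE 0.37, adjusted p = 0.0219), on levels of 0.035 to 0.097. Fgfr3 was higher in CKD than in AKI (0.91, SE 0.18, adjusted p = 0.00668), a comparison in which 4.22% of all genes passed. The list's median change was -0.41 in AKI and 0.23 in CKD.

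Of 8 partners of the phosphate cotransporters, 3 rose in AKI and 1 fell, with a median of -0.03. Slc9a3r1, the scaffold NHERF1 that anchors the cotransporter to the brush border, rose from 1.33 to 2.31 and 2.54 (0.79, SE 0.22, adjusted p = 0.0169), and Ezr, which links that scaffold to actin, from 2.04 to 3.73 and 4.06 (0.86, SE 0.22, adjusted p = 0.00979). Pdzk1, a second scaffold, fell from 5.79 to 3.83 and 3.66 (-0.71, SE 0.21, adjusted p = 0.0243). Slc34a2, the cotransporter of gut and lung, was called higher at levels of 0.004 in the control and 0.016 to 0.030 elsewhere (2.79, SE 0.94, adjusted p = 0.0432). None of the 8 was called in CKD against control by edgeR in PT-like cells.

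Of 11 genes of vitamin D uptake, synthesis and receptor partners, 3 fell and 1 rose in AKI, with a median of -0.03. The megalin gene Lrp2, whose receptor takes up vitamin D with its binding protein, measured 7.14, 3.69, 3.89, 5.23 and 5.13 (-0.99, SE 0.21, adjusted p = 0.0026 in AKI; -0.50, SE 0.21, adjusted p = 0.148 in CKD). Its partner Cubn fell in AKI (-0.65, SE 0.19, adjusted p = 0.0233) and was higher in CKD than in AKI (0.71, SE 0.16, adjusted p = 0.0165), with CKD levels of 1.11 and 1.31 beside 1.124 in the control. Fdx1, the ferredoxin that feeds electrons to mitochondrial P450 enzymes, fell in AKI (-0.66, SE 0.20, adjusted p = 0.0283). Gc, the vitamin D binding protein, rose at both stages, from 0.582 to 2.49 and 1.39 in AKI (1.65, SE 0.34, adjusted p = 0.00235) and to 3.20 and 1.97 in CKD (2.13, SE 0.35, adjusted p = 0.000687).

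In the parathyroid hormone signalling list 1 of 10 genes changed in PT-like cells in AKI: Pde4d, a cAMP-degrading enzyme, fell from 0.542 to 0.237 and 0.254 (-1.22, SE 0.21, adjusted p = 0.000643) and was higher in CKD than in AKI (0.87, SE 0.18, adjusted p = 0.0115). In TAL-like cells Casr, the calcium-sensing receptor, chosen for mention after its values were seen, fell by 1.55 on the log2 scale in AKI (SE 0.25, adjusted p = 0.000783) and by 1.01 in CKD (SE 0.24, adjusted p = 0.0184). Of 5 bone hormone processing enzymes, Adam10, a protease known to shed klotho, rose in PT-like cells in AKI from 0.245 to 0.468 and 0.734 (1.23, SE 0.27, adjusted p = 0.0038) and was lower in CKD than in AKI (-0.81, SE 0.21, adjusted p = 0.0357).

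The genes whose pattern over 80 sums of a class in a library was most like each of the 10, among 13344 genes, are given as a description, since sums of 1 class and of 1 library share cell identity and depth. For Kl they were S100g (Pearson's r 0.852), the calcium binding protein of CNT cells, and Emx1 (0.844). For Vdr, Wnk4 (0.880), a kinase of salt transport in the DCT, was closest. The PT genes had the closest matches: Akr1c21 (0.968) and Pck1 (0.966) for Slc34a1, Slc26a1 and Aadac (both 0.957) for Slc34a3, Slc17a1 (0.903) and Paqr9 (0.897) for Cyp24a1, and Cyp2j13 (0.884) and Mansc4 (0.859) for Cyp27b1. Sardh (0.868) and Baiap2l2 (0.832) were closest to Pth1r, Nfix (0.851) and Sorbs2 (0.839) to Fgfr1, and Glis2 (0.822) and Nacc2 (0.809) to Slc20a2. For Slc20a1 the best matches, Lrrc8d (0.604) and Slc3a2 (0.594), were much weaker.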

How the data were processed

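The authors deposited, for each library, a matrix of raw UMI counts per gene and barcode. Per the labels, reads were processed with Cell Ranger 7.2.0 and GRCm39, whereas the matrix headers of the 4 AKI and CKD libraries name cellranger 5.0.0. No ambient RNA correction is in these counts, so free RNA remains in every value.

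Barcodes with under 200 genes or over 30% mitochondrial UMIs were left out, as were putative doublets (0.8% per 1000 cells, by similarity to simulated doublets). Cells were clustered after correction by library (Leiden, resolution 1.5, then again within the epithelium), with the 10 genes and the pathway lists kept out of clustering and naming. The rules that name a cluster were settled after the clusters were seen, so class names are rebuilt and are not the authors'. Clusters led by genes of other classes stayed unnamed.

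Counts were summed per class and library and tested with edgeR 4.0.16 (quasi-likelihood, TMM, filterByExpr, R 4.3.3) in 1 fit over all 5 libraries, for classes with at least 20 cells in every library. The lone control is assumed to vary like the other libraries. P-values were adjusted over all genes tested in the class, and a call is an adjusted p under 0.05. SE is the log2 change divided by the root of F. On simulated counts with 200 changed genes, 71.5% were recovered in PT-like and 70% in DCT-like cells for AKI against control. For 2-fold changes the shares were 49% and 42%, and for 4-fold changes 94% and 98%. Genes of low count were not among those changed. Poisson intervals cover counting error only. The test between classes used both classes' sums with library as a block, and it was chosen after the data were seen, as were the alternatives with at least 10 cells and without low-UMI clusters. DESeq2 1.42.0 was an alternative.

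The genes, lists and tests were chosen with earlier results of these data known. Named genes were the 10 members, at most 4 called genes of each pathway list, those with the largest change in PT-like cells, and the 2 genes most correlated with each member on log2(UMIs per 10000 + 0.1), among genes with at least 500 UMIs. One gene that this rule names is not reported here.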

Additional observations from a re-analysis of the deposited data

Results flagged for a closer look

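Several genes changed by different amounts in different classes of the nephron, by the test of the difference itself (edgeR, class by group term with library as a block). For Kl, the DCT-like change minus the PT-like change was -2.78 on the log2 scale in AKI against control (SE 0.31, adjusted p = 1.56e-15) and -1.75 in CKD against control (SE 0.31, adjusted p = 5.7e-06). The TAL-like change of Kl minus the PT-like change was -1.72 in AKI (SE 0.28, adjusted p = 4.2e-06) and -1.40 in CKD (SE 0.27, adjusted p = 0.000265). The CNT-like change of Kl minus the DCT-like change was 1.99 in AKI (SE 0.42, adjusted p = 0.0411), with only 16 CNT-like cells in CKD 2.

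For Fgfr1, the TAL-like change minus the PT-like change was -1.58 in AKI (SE 0.37, adjusted p = 0.00304) and -1.26 in CKD (SE 0.37, adjusted p = 0.0356). For Slc20a2, the DCT-like change minus the PT-like change was -1.45 in AKI (SE 0.48, adjusted p = 0.0403), while neither class had a call of its own, and DCT-like cells of AKI 2 and CKD 2 held 9 and 3 UMIs of the gene. Both contrasts rest on the same control library, which held more free Kl RNA than the others, at 0.799 UMIs per 10000 in T lymphocyte-like cells against 0.023 to 0.159.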

How the results depend on the processing

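The count of the 10 genes' tests that passed was 15 in AKI against control, 10 in CKD against control and 0 in CKD against AKI. DESeq2 gave 8, 6 and 1, no filter on low counts 26, 18 and 15, and a fit of only the 2 groups compared 38 in AKI against control. CKD against AKI gave 1 with doublets kept, 1 with the mitochondrial limit at 15%, 1 without shared barcodes and 3 without correction by library. Leaving out 1 library gave 9 to 37 (AKI against control), 11 to 34 (CKD against control) and 0 to 27 (CKD against AKI), the high values without CKD 1 (34, 34 and 15) or CKD 2 (37, 31 and 27). For the listed pathway genes, main counts 26, 6 and 5, DESeq2 gave 16 in AKI against control and 2 in CKD against AKI, no low-count filter 40, 19 and 13, and only the 2 groups compared 47 and 10 in the contrasts with control. CKD against AKI gave 0 with doublets kept, 0 at the 15% limit and 2 without shared barcodes, and leaving out 1 library gave 19 to 47, 11 to 19 and 6 to 14. The share of all genes that passed is not given here for any alternative. The counts therefore cannot show whether the moves were particular to these genes. The cause of the moves was not tested. Kl in CD IC-like cells, CKD against control, reversed to 0.79 with doublets kept (adjusted p = 0.807). Labels give AKI and CKD the same replicate numbers but no shared origin, and deviations of same-numbered libraries correlated by -0.01 in PT-like, 0.09 in DCT-like, 0.12 in TAL-like and 0.27 in T lymphocyte-like cells, so they were not treated as pairs. With a replicate block CKD against AKI gave 5 calls for the 10 genes and 8 for the listed genes, and Kl in DCT-like cells passed (1.25, adjusted p = 7.12e-06). Of 70 levels, 63 moved by less than the spread with doublets kept, 61 at the 15% limit and 68 without correction by library. DCT-like cells could not be fitted without low-UMI clusters, since CKD 2 then kept 12 cells. Depth was a limit for Cyp27b1, with 18 to 66 UMIs a library in PT-like cells.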

Other observations

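Clusters that stayed unnamed also held the 10 genes. A cluster of 337 cells led by S100g, Insrr and Oxgr1, with both CNT and intercalated cell genes among its leaders (Trpv5 and Slc26a4), held Kl at 7.48, Vdr at 1.63 and Slc34a1 at 0.34 UMIs per 10000 over its cells. A cluster of 155 cells led by Mmp7, Ccl20 and Lcn2, all but 2 of them from injured kidneys, held Kl at 0.32 and Pth1r at 3.59. A cluster of 677 cells, 602 of them from CKD 1, with PT and lymphocyte genes among its leaders, held Slc34a1 at 18.6 and Slc34a3 at 0.33. A cluster of 1336 cells led by macrophage genes held Slc34a1 at 7.65 and Pth1r at 1.33. These cells entered none of the comparisons.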
